A study of Mus musculus with 8 samples.

Results

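Genes of epithelial cell junctions and of mesenchymal cell adhesion, 10 in all, were followed in mouse embryonic stem (mES) cells with and without a functional Trim71 gene. They were taken by gene symbol from a table of 13558 transcripts, and all 10 were in it: 7 epithelial genes (Cdh1, Epcam, Cldn4, Cldn6, Cldn7, Tjp1 and Ocln) and 3 mesenchymal genes (Cdh2, Vim and Itgb1). The rule that picked them reads the symbol only and no measured value. The members and the gene lists used below were nonetheless chosen with earlier results of these data known. The question was whether loss of Trim71, an RNA-binding ubiquitin ligase, moved the stem cells along the axis between an epithelial and a mesenchymal state.

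RNA of 8 libraries had been sequenced, 4 called KO and 4 called WT. All cells were male C57BL/6 mES cells that carried Trim71 fl/fl, an allele whose last exon lies between loxP sites, together with Rosa26-CreERT2, a Cre recombinase made from a ubiquitous locus that acts once 4-hydroxytamoxifen (4-OHT) is given. Per the labels, WT cells kept the intact floxed allele, and KO cells (Trim71-/-) had received 500 nM 4-OHT for 2 days and were grown for at least 7 days more. The paper's methods instead give a lower dose and a shorter culture after it, with DMSO as the vehicle for control cells. Cells were kept in serum with LIF and sorted for the stem cell antigen SSEA-1 before lysis. They came from a pair of clones: KO replicates 1, 2 and 3 and WT replicates 2 and 3 from clone E3, and KO replicate 4 and WT replicates 1 and 4 from clone 1. The day label was 2, 3, 4 and 5 in the KO libraries and 1, 3, 4 and 5 in the WT libraries, each in the order of the replicate number, so that days 3, 4 and 5 each held 1 KO and 1 WT library of the same clone. The labels do not say what the day counts, so that reading it as a day shared by both genotypes is an assumption, on which every same-day value rests. As 4-OHT was given to KO cells only, its own effect and that of the mutation cannot be told apart, and p-values measure the spread between these libraries.

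Levels are normalised read counts from which the authors had already removed a clone effect. Whole reads could be worked back from them for 99.2% of transcripts and came to between 6659912 and 24826094 per library. Trim71 itself stood at 500.3, 793, 733 and 247 in KO and at 2782, 2736, 1988 and 2584 in WT, which fits the labels, although the value covers the whole transcript and only its last exon was deleted. None of the 10 ES cell marker genes listed for this work passed an unadjusted p of 0.05 over the 8 libraries (limma), against 9.09% of all transcripts. With libraries paired by day 1 was higher in KO (19.2% of all transcripts passed), and 1 with a length and GC trend removed (9.65%). Their summed level ran from 71653 to 92836 in KO and from 66344 to 82422 in WT. Of 10 fibroblast markers 4 were in the table, with sums of 96.6 to 178 in KO and 74.6 to 154.5 in WT. WT replicate 1 stood apart in the sum over markers of primitive endoderm, an early epithelium. The sum was 5433 there against 9585 to 12204 in the other WT libraries and 9991 to 14891 in KO. Gata6, Sox17, Foxa2 and Col4a2 were at 1 in it, the lowest value the table holds. As a clone effect was subtracted before that floor was set, 1 need not mean absence: Col4a2 had at least 210 recovered reads in every library. WT replicate 4, also of clone 1, was not low in the sum (10673.5) but was low in Foxa2 (1), Sox17 (3.35) and Gata6 (8.20).

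Epithelial cells are held together by E-cadherin (Cdh1), which joins neighbouring cells at adherens junctions, and by tight junctions, in which claudins (Cldn) and occludin (Ocln) span the membrane and ZO-1 (Tjp1) ties them to actin. In an epithelial-mesenchymal transition (EMT), E-cadherin and claudins are turned down by repressors such as Zeb1 and Snai1, while N-cadherin (Cdh2) and the intermediate filament protein vimentin (Vim) come up. mES cells grow as compact colonies with high E-cadherin and Epcam, a surface adhesion protein, and so sit on the epithelial side of that axis.

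Zeb and Snail repressors bind the E-box with the letters CAGGTG, which reads CACCTG on the other strand. The 30 bases around each such match are shown for the members, as such repressors turn down E-cadherin and claudins. Binding was not tested. RefSeq promoter windows of 300 bases (250 before and 50 after an annotated start, build GRCm38.p6) were at hand for 8 members, but not for Cdh1 and Cdh2. The motif was found in 5 of the 6 epithelial members with a window and in 0 of the 2 mesenchymal ones, Vim and Itgb1, against 20.2% of all 32851 windows searched on both strands and 21.7% of the 10158 genes of the table that have one. Tjp1 was the epithelial member with no match. Of the 10 matches 3 lay upstream of the gene, 4 in an exon and 3 across the end of an exon, where the same letters also make up a splice donor (GENCODE vM21). GENCODE has transcripts of Cldn6 and Cldn7 that begin before the starts used here. Capitals mark the motif, and each sequence runs 5′ to 3′ on the strand of its gene.
Epcam, chr17:87635780-87635809, plus strand, upstream, 187 bases before the start: gccagtagggccCACCTGctggaggaccgg
Epcam, chr17:87635948-87635977, plus strand, upstream, 19 bases before the start: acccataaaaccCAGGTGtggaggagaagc
Cldn4, chr5:134946931-134946960, minus strand, upstream, 14 bases before the start: ctttaactgcagCACCTGtggccgcccttt
Cldn4, chr5:134946906-134946935, minus strand, first exon, 11 bases after the start: cctttcttgttgCAGGTGcaggcaggaaag
Cldn6, chr17:23679260-23679289, plus strand, exon of a longer transcript, 93 bases before the start: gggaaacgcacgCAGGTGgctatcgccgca
Cldn6, chr17:23679385-23679414, plus strand, exon end, 40 bases after the start: aatcttagcagtctcttttgCAGGTGagcc
Cldn7, chr11:69965312-69965341, plus strand, exon of a longer transcript, 97 bases before the second annotated start: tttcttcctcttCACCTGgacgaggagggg
Cldn7, chr11:69965352-69965381, plus strand, exon end, 57 bases before the second annotated start: agacttccggttCAGGTGagtgtcccttca
Ocln, chr13:100552694-100552723, minus strand, first exon, 7 bases after the first annotated start: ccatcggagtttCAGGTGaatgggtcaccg
Ocln, chr13:100552549-100552578, minus strand, exon end, 68 bases before the second annotated start: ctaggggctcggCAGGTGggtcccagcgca

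**Figure D1:**
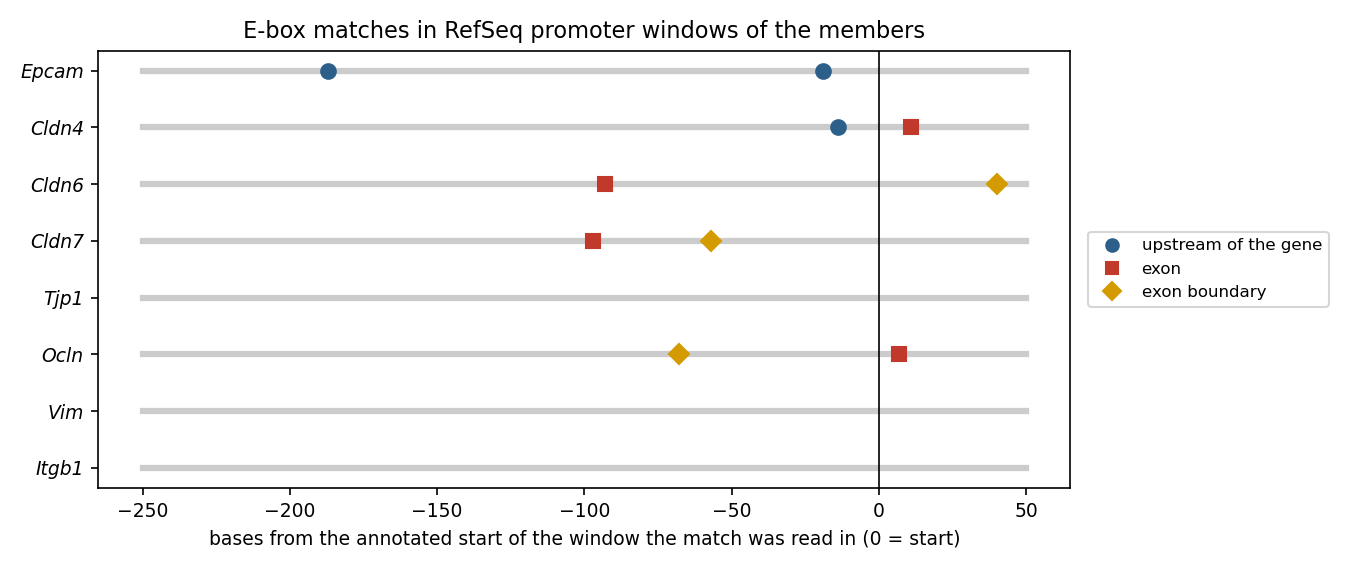
E-box matches in the RefSeq promoter windows of the 8 members that have one, by distance in bases from the annotated start of the window; grey bars are the windows, and symbols tell matches upstream of the gene, in an exon and across an exon end. Epcam, Cldn4, Cldn6, Cldn7 and Ocln held 2 matches each, and Tjp1, Vim and Itgb1 none.

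Per length of transcript, E-cadherin and the other epithelial members stood above N-cadherin in WT cells, while the mesenchymal members Itgb1 and Vim lay among them. Cldn4 (1733 normalised reads per kilobase, mean of 4 WT libraries), Epcam (1618) and Cdh1 (1451) led, and their WT ranges overlapped. Cldn6 (617), Itgb1 (590), Vim (577), Tjp1 (468) and Cldn7 (398) formed a middle group in which most neighbours overlapped over WT libraries. Ocln (32.8) and Cdh2 (15.6) were lowest, Cdh2 between 9.06 and 23.1 and Ocln between 30.5 and 37.3 per kilobase. In KO the same measure was 1957 for Cldn4, 939 for Cldn6, 43.0 for Ocln and 10.7 for Cdh2.

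Of the 10 members 3 had an unadjusted p under 0.05 between KO and WT in limma with a term for clone, Cldn6 and Ocln higher in KO and Tjp1 lower, against 9.09% of all transcripts. Cldn6 alone among them also reached a 1.5-fold difference, a criterion of both conditions that 4.25% of all transcripts met (238 higher and 338 lower). No transcript of the table passed an adjusted p of 0.05, so no member did, while 1232 transcripts had an unadjusted p below it. The groups did not overlap in 2 members, Epcam (higher in KO) and Tjp1 (lower), against 10.1% of all transcripts. The median log2 fold change was 0.19 over the 7 epithelial members and 0.04 over the 3 mesenchymal ones, beside about 0 over all transcripts.

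**Figure D2:**
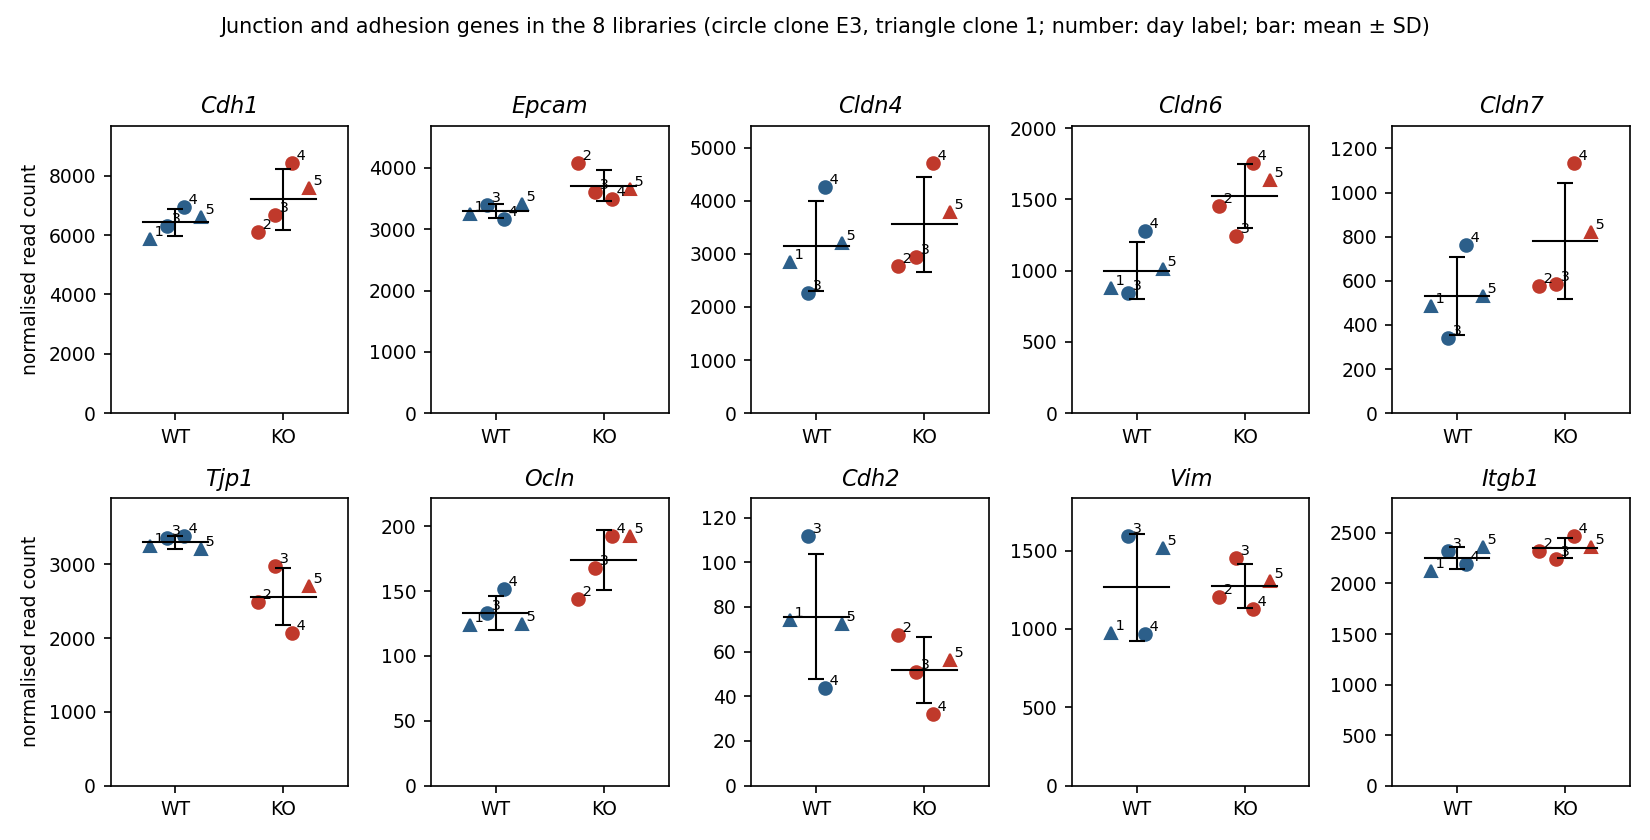
Normalised read counts of the 10 members in the 4 WT (blue) and 4 KO (red) libraries, each panel on its own axis from 0; circles are clone E3, triangles clone 1, numbers are the day label, and black bars give the mean ± SD. Cldn6 lies mostly higher in KO (1244 to 1755) than in WT (840.5 to 1276), Tjp1 lower without overlap, and Vim overlaps between the groups.

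Cldn6, a claudin typical of embryonic epithelia and undifferentiated stem cells (chr17:23679348-23682446), had the smallest unadjusted p of the members in the fit over 8 libraries. Its level was 1455, 1244, 1755 and 1637 in the KO libraries and 877, 840.5, 1276 and 1011 in the WT libraries, given here and below in the order of the replicate number. Only the highest WT library, of day 4, reached the lowest KO library, of day 3. The means were 1522 ± 223 in KO and 1001 ± 197 in WT (SD, n = 4). On the log2 scale KO was higher by 0.61 ± 0.19 (SE), with a 95% interval of 0.16 to 1.05. The unadjusted p was 0.0141 and the adjusted p 0.457 (limma). KO exceeded WT by 0.56, 0.46 and 0.69 on the log2 scale on days 3, 4 and 5. With the day as a block the change was 0.57 at an unadjusted p of 0.00439, just under 1.5-fold. Without KO replicate 4 the change was 0.50 at unadjusted p = 0.0862, and without WT replicate 2 it was 0.48 at unadjusted p = 0.0591.

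In both other claudins the day 4 library was the highest of each genotype. Cldn7, which also binds Epcam at the lateral membrane (chr11:69964779-69967886), stood at 575, 586, 1133 and 823 in KO and at 488, 342, 764 and 531 in WT. KO was above WT on each shared day, by 0.77, 0.57 and 0.63 on the log2 scale. Over all libraries the change was 0.57 ± 0.33 (SE) with an unadjusted p of 0.123, and with the day as a block it was 0.66 ± 0.10 with unadjusted p = 0.00239 (limma, adjusted p = 0.199). Leaving out WT replicate 3, the day 4 library, took it to 0.90 with unadjusted p = 0.0244, and leaving out WT replicate 2 to 0.29.

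Cldn4, the claudin with the highest level per kilobase and a receptor for a bacterial enterotoxin (chr5:134945123-134946934), had 2777, 2942, 4708 and 3791 in KO and 2855, 2266, 4264 and 3201 in WT. The groups overlapped almost fully. The log2 fold change was 0.19 with a 95% interval of -0.42 to 0.81 (limma, unadjusted p = 0.483). KO lay above WT on the 3 shared days, and with the day as a block the change was 0.25 with unadjusted p = 0.0644. Without WT replicate 2, the lowest WT library, it was -0.02.

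Ocln, the gene of occludin (chr13:100496504-100552718), was the weakest of the epithelial members and higher in KO. Its values were 144, 167, 193 and 192 in KO and 124, 133, 151 and 124.5 in WT, resting on 71 to 324 recovered reads per library. Only WT replicate 3, of day 4, came above the lowest KO library. The log2 fold change was 0.37 ± 0.15 (SE), unadjusted p = 0.0369 and adjusted p = 0.522 (limma). It was 0.43 with unadjusted p = 0.0165 with the day as a block. Without KO replicate 4 it was 0.23 with unadjusted p = 0.235, and leaving out KO replicate 2 or 3 or WT replicate 1, 2 or 4 gave 0.33 to 0.39 with p between 0.0617 and 0.0842.

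Tjp1, the scaffold that carries claudins and occludin (chr7:65296165-65527850), went the other way. KO libraries had 2489.9, 2980.1, 2068 and 2705, and WT libraries 3248, 3356, 3391 and 3210.5. Every KO library was below every WT library, and WT spread over only 85.9 (SD) against 385 in KO. The log2 fold change was -0.37 ± 0.14 (SE), unadjusted p = 0.0332 and adjusted p = 0.516 (limma). On the shared days the differences were -0.17, -0.71 and -0.25, and with the day as a block p was 0.0615. Leaving out 1 library at a time gave -0.45 to -0.29, and p was at or above 0.05 (0.0549 to 0.0884) except without KO replicate 2 or KO replicate 3.

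Cdh1, the E-cadherin gene (chr8:106603350-106670247), kept a high level in both genotypes. It had 6108, 6679, 8423 and 7589 in KO and 5860.3, 6298, 6947 and 6606 in WT, with overlapping groups. The log2 fold change was 0.16 with a 95% interval of -0.18 to 0.49 (limma, unadjusted p = 0.313), so that a change past 1.5-fold in either direction lay outside the interval. Epcam (chr17:87635979-87651127) had 4078, 3604, 3496 and 3664 in KO and 3245, 3393, 3162 and 3403 in WT. Its groups were apart, yet the change was small, 0.17 with an interval of -0.09 to 0.42 and an unadjusted p of 0.162 (limma).

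Among the mesenchymal members, N-cadherin had the largest difference and the largest spread. Cdh2 (chr18:16588877-16809246) stood at 67.6, 51.0, 32.1 and 56.4 in KO and at 74.2, 112, 43.9 and 72.4 in WT, on 28 to 96 recovered reads. Here the day 4 library was the lowest of each genotype, the opposite of Cldn4, Cldn6 and Cldn7. The log2 fold change was -0.48 ± 0.34 (SE, limma, unadjusted p = 0.205). On days 3, 4 and 5 KO was below WT by differences of -1.12, -0.44 and -0.35, and with the day as a block the change was -0.64 with an unadjusted p of 0.0274 and an adjusted p of 0.235. The value depended on single WT libraries: it was -0.11 without WT replicate 2 and -0.81 with unadjusted p = 0.0462 without WT replicate 3.

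Vim (chr2:13574311-13582826) gave no difference beyond its spread. Its level was 1202, 1452, 1129 and 1308 in KO and 976, 1596, 969.7 and 1519 in WT. WT libraries thus lay both below and above all KO libraries, and the log2 fold change was 0.04 with an interval of -0.48 to 0.56 (limma, unadjusted p = 0.848). Itgb1, the beta 1 subunit shared by many matrix-binding integrins (chr8:128685654-128733579), was the steadiest member. It had 2319, 2242, 2474 and 2362 in KO and 2127, 2321, 2191 and 2361 in WT. The log2 difference was 0.06, between -0.18 and 0.31 at 95% confidence.

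With the day as a block over the 6 libraries of days 3, 4 and 5, which share a clone within each day, 4 members had an unadjusted p under 0.05: Cldn6, Cldn7 and Ocln higher in KO and Cdh2 lower. The share over all transcripts was 19.2% in that fit. Cldn7 and Cdh2 met the fold change criterion there, against 7.49% of all transcripts. Cdh1, Epcam, Cldn4, Cldn6, Cldn7 and Ocln were above WT and Tjp1 and Cdh2 below it on each of the 3 days. An effect of genotype that differed between the clones was not seen in any member, with unadjusted interaction p of 0.236 to 0.935 (limma), in a design with 1 KO library of clone 1.

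**Figure D3:**
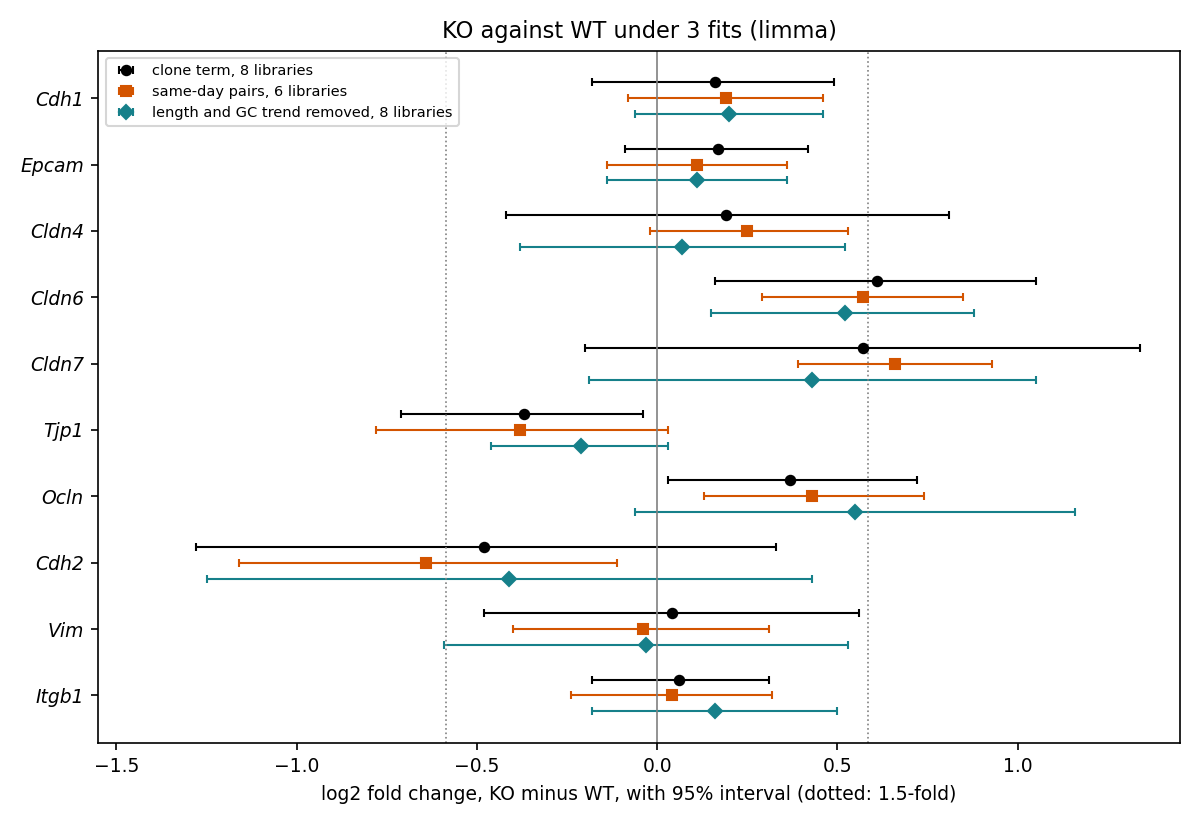
Log2 fold changes of the members, KO minus WT, with 95% intervals under 3 limma fits: a clone term over 8 libraries (black), same-day pairs over 6 libraries (orange), and the clone term after a trend with length and GC content was removed (teal); dotted lines mark 1.5-fold. Cldn6 lies above 0 in all 3, and the intervals of Cldn7 and Cdh2 leave 0 only with same-day pairs.

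Fold changes followed transcript length across the whole table. In 8 classes of equal size the median log2 fold change went from 0.134 in the shortest (up to 1362 bases) to -0.194 in the longest (from 5993 bases), and from -0.214 to 0.138 with rising GC content. Cldn6 (1622 bases), Cldn7 (1335) and Cldn4 (1816) are short and rich in GC, while Tjp1 (7049) is among the longest, so these 4 differed in the direction of transcripts of their length. After that trend was removed from each library, 1 member had an unadjusted p under 0.05, against 9.65% of transcripts: Cldn6 with 0.52 and unadjusted p = 0.0122. Tjp1 then gave -0.21 with unadjusted p = 0.0765, Cldn7 0.43 with unadjusted p = 0.145 and Ocln, long and low in GC, 0.55 with unadjusted p = 0.0700. What made fold changes follow length was not tested.

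**Figure D4:**
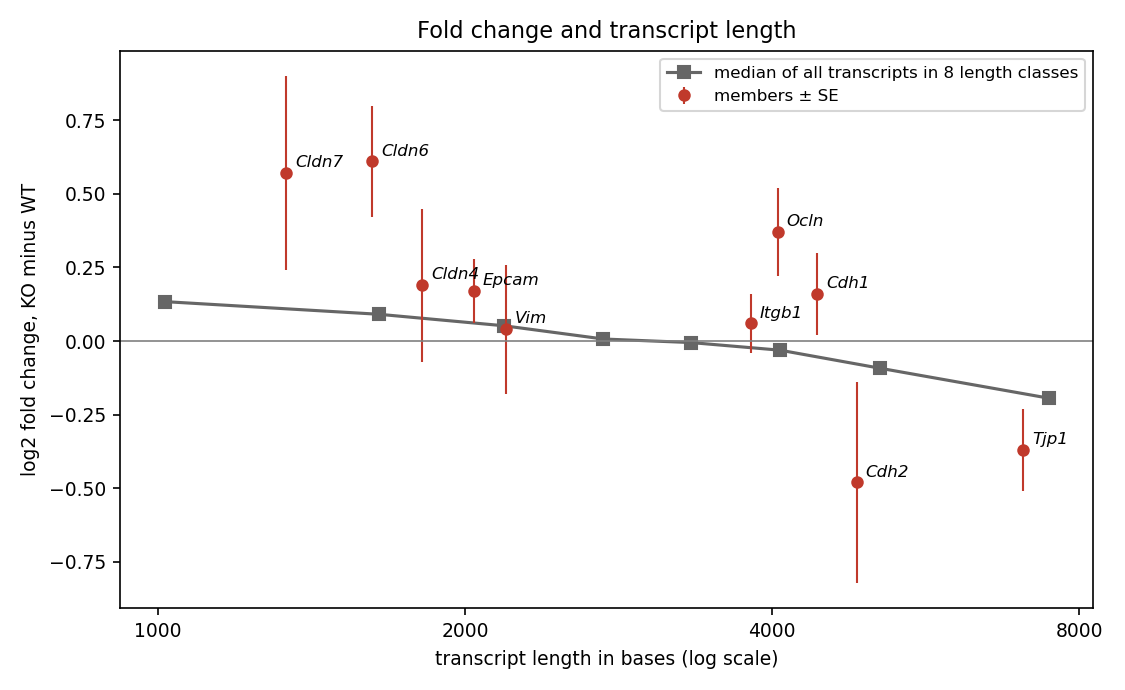
Log2 fold change, KO minus WT, of the members (red, ± SE) against transcript length on a log scale, with the median of all transcripts in 8 length classes (grey). The grey line falls from 0.134 to -0.194, with Cldn7 and Cldn6 above it among short transcripts and Tjp1 below it among long ones.

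Zeb1, the E-box repressor of epithelial genes, was lower in KO, with 205, 213, 85.5 and 152 against 316, 378, 211 and 298 in WT. Only WT replicate 3 reached the KO range, and both day 4 libraries were the lowest of their genotype. The log2 fold change was -0.91 ± 0.34 (SE) with an unadjusted p of 0.0313 and an adjusted p of 0.516 (limma), and -1.03 with unadjusted p = 0.00123 with the day as a block. After the length trend was removed it was -0.77 with unadjusted p = 0.0361. Leaving out KO replicate 4 or WT replicate 1, 2 or 4 gave -0.92 to -0.71 with p between 0.0540 and 0.117. Of 11 EMT transcription factors 7 were measured. Beside Zeb1, 2 had an unadjusted p under 0.05 (limma), against 9.09% of all transcripts in either direction. Both were higher in KO: Snai3, a Snail family member (0.61, unadjusted p = 0.00289), and Twist1 (0.59, unadjusted p = 0.0383). Twist1 went to 0.28 with unadjusted p = 0.283 without KO replicate 4 and also missed 0.05 without KO replicate 3 or WT replicate 1 or 4 (0.50 to 0.57). Twist1 gave 0.43 with unadjusted p = 0.0589 once the length trend was removed. Zeb2 (-0.35), Snai1 (0.69), Snai2 (-0.22) and Tcf4 (-0.13) had a p of 0.05 or more. With the day as a block, where 19.2% of all transcripts passed, Snai2 was lower in KO (-0.64, unadjusted p = 0.0077) and so was Zeb2 (-0.41, unadjusted p = 0.0327). Yet Snai1, Snai2 and Zeb2 had at most 32 recovered reads in any library.

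Of 15 listed regulators and marker genes of the epithelial state 14 were measured, and 4 were higher in KO with an unadjusted p under 0.05 and none lower. Over all transcripts 9.09% had such a p in either direction, which is the share to set beside this count and those of the other lists below. A fold change above 0 was found in 12 of the 14, against 50% of all transcripts, and the median was 0.35. Without KO replicate 4, 2 were higher and the median was 0.21, and without WT replicate 1, 4 were higher and it was 0.34. Rab25, a GTPase of apical recycling, had 217, 215, 201 and 181 in KO and 147, 116, 121 and 135 in WT (0.66 ± 0.13 SE, limma unadjusted p = 0.00136, adjusted p = 0.383). Ovol2, a repressor of Zeb1, was at 0.52 (unadjusted p = 0.00483), Esrp1, an epithelial splicing regulator, at 0.39 (unadjusted p = 0.0197), and Spint2, a protease inhibitor of epithelial surfaces, at 0.48 (unadjusted p = 0.0216). The groups of these 4 genes did not overlap (10.1% of all transcripts), and each stayed under an unadjusted p of 0.05 with the day as a block and with the length trend removed. Esrp1 missed it without KO replicate 2 or 4 or WT replicate 3 (0.35 to 0.38, p of 0.0520 to 0.0817), and Spint2 without KO replicate 4 (0.44) or WT replicate 2 (0.37). The membrane protease St14, the other most highly expressed gene of the list, gave 0.45 with unadjusted p = 0.255. It was 0.08 without WT replicate 2, 0.86 with unadjusted p = 0.0278 without WT replicate 3, and 0.56 with unadjusted p = 0.0210 with the day as a block.

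Of 17 further adherens junction genes 16 were measured, with a median of 0.03. Jup, the plakoglobin that also serves desmosomes (0.57, limma unadjusted p = 0.00367), and Pvrl1, the nectin 1 gene (0.60, unadjusted p = 0.00919), were higher in KO. Lima1, an actin binder (-0.77, unadjusted p = 0.0325), was lower. Pvrl1 had 0.43 with unadjusted p = 0.0767 without KO replicate 4, and Lima1 -0.74 to -0.59 with p of 0.0609 to 0.147 without KO replicate 1, 2 or 4 or WT replicate 1 or 3. The catenins that link E-cadherin to actin did not differ beyond their spread, Ctnnb1 with 0.04 (interval -0.25 to 0.33) and Ctnna1 with 0.06 (-0.25 to 0.37). Of 37 further tight junction genes, which leave out the members Cldn6, Ocln and Tjp1 among others, 29 were measured, with a median of 0.05. None of these 29 was higher at p under 0.05 (limma) over the 8 libraries. With the day as a block, where 19.2% of all transcripts passed, 2 were higher and 4 lower. With the length trend removed 2 were higher and 3 lower. The 2 that were lower over the 8 libraries are cytoplasmic scaffolds like Tjp1: Cgnl1, or paracingulin (-0.74, unadjusted p = 0.00169), and Mpdz, or MUPP1 (-0.88, unadjusted p = 0.0116, and -0.70 with unadjusted p = 0.0509 without WT replicate 3). Prkci, an atypical protein kinase C of the polarity complex and among the most highly expressed of the others, gave -0.06 with a p of 0.05 or more.

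Of 14 desmosome and keratin genes 12 were measured and 11 had a fold change above 0 (median 0.34), against 50% of all transcripts. That count and median changed when a library of clone 1 was left out: they were 7 and 0.14 without WT replicate 1, 5 and -0.06 without KO replicate 4, which leaves KO libraries of clone E3 only, and 8 and 0.08 with the day as a block. With the clone correction undone they were 9 and 0.18. In WT replicate 1 Krt19 was at 1, Dsc2 at 5.58 and Krt7 at 30.6, against at least 242, 86.2 and 136 in the other WT libraries. These values follow the authors' subtraction of a clone effect and do not show absence. The lowest recovered reads in any library were 102 for Krt19, 25 for Dsc2 and 104 for Krt7. Krt17, a keratin of stratified and stressed epithelia, passed p under 0.05 with 1.03 (unadjusted p = 0.00879), while Krt18 was at 0.25 (unadjusted p = 0.573) and Pkp4 at -0.04. Primitive endoderm, which such cultures can form before a sort for SSEA-1, makes keratins and matrix as well. Its 11 markers, all measured, had a median log2 fold change of 0.74, with none at p under 0.05 in either direction (limma) over the 8 libraries and 2 lower with the day as a block. The median was 2.01 within clone 1 and 0.00 within clone E3, as in Foxa2 with 3.68 and 0.02, and it was 0.41 without WT replicate 1. With the clone correction undone it was 0.50 over the 10 markers in that fit. Foxa2 was at 1 in both WT libraries of clone 1. The part of such cells in the list medians was not tested, and in bulk RNA fewer cells of a type and less RNA per cell cannot be told apart.

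Of 18 further mesenchymal marker genes 15 were measured, 10 of them with a fold change above 0 (median 0.35), against 50% of all transcripts. The median was 0.05 without WT replicate 1, -0.03 without KO replicate 4, 0.05 with the day as a block and 0.15 with the clone correction undone. The 2 with p under 0.05 were lower in KO: Nes, the nestin gene (-0.50, unadjusted p = 0.0161), and Vcan, a matrix proteoglycan (-0.88, unadjusted p = 0.0179), both long transcripts that gave p of 0.0737 and 0.0610 once the length trend was removed. The paper uses nestin as a marker of early neural cells, so Nes is not particular to a mesenchymal state. Nes missed the threshold without WT replicate 2 (-0.35), and Vcan without KO replicate 4 (-0.83) or WT replicate 3 (-0.71) and with the day as a block (-0.75, unadjusted p = 0.0783). The abundant matrix genes Fn1 (-0.39, unadjusted p = 0.301) and Sparc (0.19, unadjusted p = 0.410) did not pass. Of 22 further integrin genes 18 were measured (median 0.04). Itgb7 was higher (0.55, limma unadjusted p = 0.00955) and Itga8 lower (-0.47, unadjusted p = 0.0153, on 7 to 36 reads), a number near the share of all transcripts. Itgb7 went to 0.43 with unadjusted p = 0.102 once the length trend was removed. Itga8 missed the threshold without WT replicate 3 (-0.38), with the trend removed (-0.29) and with the day as a block (-0.45, unadjusted p = 0.0679). Itga6 (0.04) and Itga3 (0.44) were short of it, although Itga3 had 0.31 with unadjusted p = 0.0411 with the block. All 15 focal adhesion genes were measured and none passed p under 0.05 (limma), with a median of 0.01, Actn4 at 0.23 and Tln1 at 0.05.

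**Figure D5:**
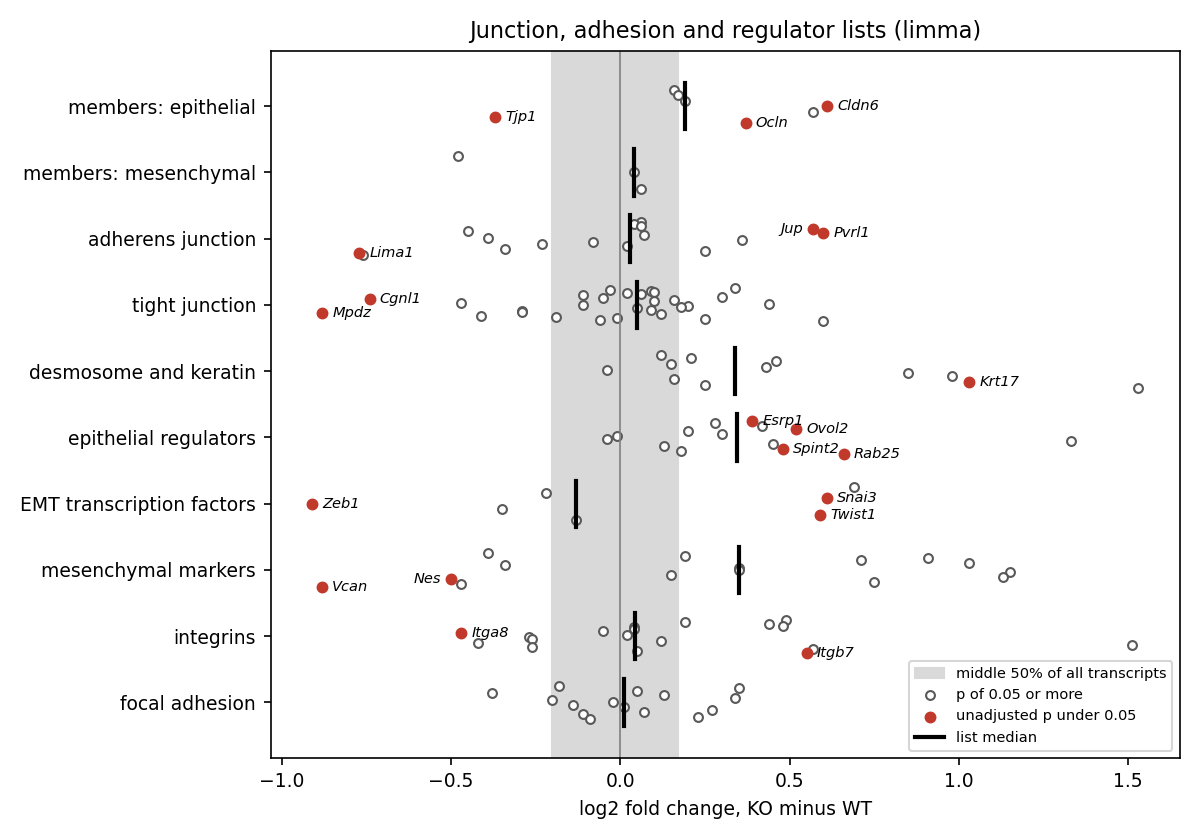
Log2 fold change, KO minus WT, of every measured gene of the member sets and of 8 lists of related genes; red points had an unadjusted p under 0.05 (limma), black bars are list medians, and the grey band holds the middle 50% of all transcripts (-0.20 to 0.17). Epithelial regulators hold 4 red points, all right of 0, while tight junction and mesenchymal markers hold 2 each, all left of it.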

How the data were processed

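RNA of 8 mES cell libraries (4 KO, 4 WT) was made into libraries with a TruSeq kit (Illumina, version 2), which does not mark strand. No exon of a member shares bases with another annotated gene (GENCODE vM21). Per the study's methods and the labels, the authors aligned reads to mm10 (CASAVA 1.8, Bowtie2 2.2.1), counted them per RefSeq transcript, normalised them with DESeq2, corrected for batch in Partek 6.6, set values under 1 to 1 and dropped weak transcripts. The deposited values are thus a normalised signal, not raw counts, and limma 3.58.1 (R 4.3.3) on log2(value + 1) took the place of a count test. Fold changes are on that scale. Its added 1 understates changes of low transcripts, while the subtracted clone effect with the floor of 1 can overstate them. Within clone 1 Krt19 gave 4.38 with WT replicate 1 at 1, although every library had at least 102 recovered reads.

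Genotype and clone were the terms of the fit, over all 13558 transcripts, with Benjamini-Hochberg adjustment over all of them. The criterion was an unadjusted p under 0.05 with a change of at least 1.5-fold. Whole reads were recovered by undoing the clone correction, uniquely for 13455 transcripts, and the totals given cover those. Samples were paired by the day in the labels, whose meaning is not given in the sources used here and was taken as a shared day: the same-day correlations of deviations were 0.42, 0.54 and -0.23 in the deposited values and 0.52 to 0.63 with the correction undone. Different-day pairs had -0.58 to 0.31 and -0.42 to 0.34. The value of -0.23 is that of day 5, the pair of clone 1. Libraries of a same-day pair also share a clone, so day and clone cannot be told apart in these values. Transcript length and GC content came from GENCODE vM21 (13462 transcripts matched). Genes were named by a rule: the 10 members; in each list those with p under 0.05 (at most 4) and the 2 with the highest mean; all measured EMT transcription factors; and Trim71. One of the genes so named is not reported here. The members and lists were chosen with earlier results of these data known. All per-sample columns were used. Both methods were tested on simulated data. Alternatives were another pseudocount, filters on low values, no clone term, untransformed values, equal library totals, a trended robust prior, the clone correction undone, voom on recovered reads, the day as a block and leaving out each library. Removing the length and GC trend, alone and with the block, and days 3 to 5 without the block, and the lists under each alternative and within each clone, were added after seeing the data.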

Additional observations from a re-analysis of the deposited data

Results flagged for a closer look

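Of 90 groups of 4 libraries checked for a library far from the other 3, 2 stood out, where chance would give about 4.5. Ctnna1, the alpha-catenin gene, had 8162 in KO replicate 3, below the other KO libraries, and Actn4, an actin crosslinker of focal adhesions, had 12999 in KO replicate 1, below the other KO libraries.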

How the results depend on the processing

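Over 22 alternatives for the 10 members, 179 of 220 values kept their direction and their side of an unadjusted p of 0.05 (limma), 22 lost and 11 gained it, and 8 changed sign, none of these at a p below it in either fit. For the other named genes 666 of 760 kept both, 53 lost and 9 gained it, and 32 changed sign, likewise none at a p below it. Members past the fold change criterion (1 in the fit reported) numbered 2 with the replicate block by day, 3 with voom on recovered reads and that block, 0 on days 3 to 5 without the block and 0 with the length and GC trend removed. Leaving out 1 library at a time gave 0 to 3, namely 0 in the absence of replicate 3 or 4 of KO, or 1 or 2 of WT, and 3 in that of WT replicate 3. Members with an unadjusted p under 0.05 (3 in the fit reported) numbered 7 with voom and the block, 1 on days 3 to 5 without the block and 1 with the trend removed, and 0 to 4 with 1 library left out, namely 0 in the absence of KO replicate 4 or of WT replicate 2, and 1 in that of replicate 1 or 4 of WT. Without KO replicate 4 all KO libraries are of clone E3. Calls that changed with the block are given beside each member and named gene, and causes were not tested.

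Signs changed as follows on the log2 scale. With 1 library left out, values ran from -0.02 to 0.46 for Cldn4, -0.14 to 0.24 for Vim, -0.01 to 0.11 for Ctnnb1, -0.20 to 0.06 for Prkci, -0.12 to 0.46 for Krt18, -0.23 to 0.09 for Tcf4, -0.20 to 1.08 for Snai1, -0.03 to 0.29 for Sparc, -0.14 to 0.18 for Itga6 and -0.02 to 0.15 for Tln1. On days 3 to 5, with the replicate block and without it alike, Vim was at -0.04, Ctnna1 -0.03, Pkp4 0.0043, Krt18 -0.17, Sparc -0.01 and Itga6 -0.07. With voom and the block, Pkp4 was at 0.04, Krt18 -0.17, Sparc -0.00054 and Itga6 -0.06. With the trend removed, Vim was at -0.03, Prkci 0.08 and Tcf4 0.20. With the trend removed and the block together, Vim was at -0.12, Prkci 0.12, Pkp4 0.01, Krt18 -0.31, Tcf4 0.22, Snai1 -0.17 and Sparc -0.05.

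Depth limits what can be said of low genes: Cdh2 rested on 28 to 96 reads per library and Snai1, Snai2 and Zeb2 on at most 32, so that small differences in them were not detectable at this depth.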
